A study of Mus musculus with 18 samples.

Results

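Transcripts of 10 immediate early genes, Fos, Fosb, Fosl1, Fosl2, Jun, Junb, Jund, Egr1, Ier2 and Dusp1, were followed by RNA sequencing in 18 mouse libraries. The genes form a list of immediate early genes that was chosen by name, with earlier results of these data known, and were found by Ensembl identifier among the 55401 genes of an endothelial table and by symbol among the 22612 lines of a table of EO771 cells. The endothelial table held 4 groups of 3 libraries of cells sorted as CD45- CD31high from wild-type C57BL/6 mice. BEC normal were blood vessel endothelial cells (BECs) of mammary fat pads, and BEC tumour were BECs of EO771 tumours. HEC normal were PNAd+ high endothelial cells (HECs), the lining of the venules through which lymphocytes pass into a lymph node, from inguinal lymph nodes of mice without tumours. HEC tumour were HECs from inguinal lymph nodes of mice with EO771 tumours, a group whose tissue the labels give as lymph node metastases. The second table held 3 libraries of EO771, a breast cancer line of the mouse, cultured with vehicle (DMSO in saline) and 3 cultured with 12-HETE, the lipid made from arachidonic acid by the enzyme ALOX12. By the methods of the study, the treatment of these cells lasted days rather than minutes. The replicates were described as independent experiments, and whether cells of several mice were pooled in each was not stated.

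Immediate early genes are transcribed within minutes of a stimulus, without the need for new protein, by factors that kinases activate. The proteins of the FOS and JUN families pair through leucine zippers to form AP-1, which binds short DNA sites. JUN proteins can pair with each other, whereas FOS proteins need a JUN partner. EGR1 is a zinc finger transcription factor, IER2 a nuclear protein of the same early wave, and DUSP1 a phosphatase that inactivates MAP kinases. The enzymatic digestion and sorting of a tissue are known to induce these genes. Here the fat pads had the shortest digestion, with collagenase I, the lymph nodes a longer one, with collagenase P, dispase II and DNase I, and the tumours the longest, with collagenases I and III and hyaluronidase. Digestion therefore cannot be told apart from tissue or cell type in comparisons of HECs with BECs, or of BEC tumour with BEC normal. Both HEC groups went through the lymph node digestion, and the cultured EO771 cells through none.

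Promoters of the list were searched for the sites of factors that act in the early wave. RefSeq promoters (GRCm38.p6), each from 250 bases before to 50 after the start, were given for 7 of the 10 genes: Dusp1, Fos, Fosb, Fosl2, Jun, Junb and Jund. The cAMP response element (CRE), bound by the CREB and ATF factors, has the sequence TGACGTCA and was found in 1 of the 7, Dusp1, against 1.79% of 32851 promoters. Its core TGACG, a motif added after the sequences had been read, stood in 4 of the 7, Dusp1, Fos, Fosb and Junb. It stands in 20.8% of all promoters, but since it was picked on these sequences nothing is read from the 2 shares. The EGR site GCGNGGGCG stood in 2 of the 7, Fosb and Fosl2 (5.55% of all promoters), and neither the CArG box of serum response factor (1.63%) nor the AP-1 site TGANTCA (7.81%) was matched. No motif was matched in Jun or Jund. Both strands were searched, CRE matches also count as core motifs, and a missing match says only that these letters are not in this window. The last 150 bases before the start of the 4 genes with a core motif are shown because these genes, as all 10 did, fell in EO771 cells given 12-HETE, with core motifs and the CRE in capitals.
Dusp1: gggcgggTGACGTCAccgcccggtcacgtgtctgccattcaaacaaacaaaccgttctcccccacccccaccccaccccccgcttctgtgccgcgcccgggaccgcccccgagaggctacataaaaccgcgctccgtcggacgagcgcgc
Fos: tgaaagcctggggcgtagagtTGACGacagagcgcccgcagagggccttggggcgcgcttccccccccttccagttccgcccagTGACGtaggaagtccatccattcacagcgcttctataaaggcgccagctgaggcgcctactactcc
Fosb: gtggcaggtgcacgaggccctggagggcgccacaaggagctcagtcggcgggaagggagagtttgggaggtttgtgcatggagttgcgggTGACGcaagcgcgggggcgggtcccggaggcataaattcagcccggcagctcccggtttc
Junb: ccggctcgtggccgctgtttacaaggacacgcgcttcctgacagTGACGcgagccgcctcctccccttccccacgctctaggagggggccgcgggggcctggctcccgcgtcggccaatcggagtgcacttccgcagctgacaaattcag
These windows lie at chr17:26508473-26508622 (minus strand), chr12:85473740-85473889 (plus strand), chr7:19310046-19310195 (minus strand) and chr8:84978749-84978898 (minus strand). The CRE of Dusp1 began 143 bases before the start, and the core motif nearest the start began 66 bases before it in Fos, 60 in Fosb and 106 in Junb.

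Totals ran from 56.4 to 79.4 M per endothelial library and from 17.3 to 18.6 M per EO771 library, and all 10 genes passed the minimum mean value of 10 in both tables. Low endothelial values stood in steps of about 3.73, so those totals are larger than the number of reads may have been. Of the pan-endothelial markers, all 10 were measured above 0 in each endothelial group. High endothelial markers summed to between 1136 and 1500 CPM (counts scaled to the library total) in HEC normal and to between 2329 and 3164 CPM in HEC tumour. What this difference between the HEC groups adds to the results was not tested. In the BEC libraries the markers summed to between 49.7 and 77.4 CPM, with Glycam1 and Chst4 at 0 in both BEC groups. Of the same 8 markers, Ccl21a was at 0 in both HEC groups and Madcam1 in HEC normal. Neither was at 0 in BEC tumour, and Madcam1 was above 0 in BEC normal as well. Of the 8 T cell markers, 4 were at 0 in HEC normal and 5 in HEC tumour, the CD3 genes among them. Levels below are DESeq2 normalised counts, mean ± SD over 3 libraries, and comparisons between genes use the normalised count per kilobase of merged exons. Calls required an adjusted p (DESeq2, two-sided Wald test, Benjamini-Hochberg over all genes tested) under 0.05 and a fold change over 2. In libraries made from many cells, fewer cells with a transcript and less transcript per cell cannot be told apart.

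In the endothelium the genes stood far apart in level. Per kilobase, the order in HEC normal began with Jund (17479 ± 107) and Jun (13529 ± 350), which were at the 98.8 and 98.3 percentiles of the genes tested. Junb, Dusp1, Fosl2, Ier2 and Fosl1 followed, between 4447 and 2584 per kilobase. Fos itself was far lower, at 425 ± 15.6, Egr1 was at 253 ± 33.1, and Fosb was last, at 137 ± 9.23. In BEC tumour Fosb stood at the 14.3 percentile, at 11.9 ± 1.38 per kilobase. Exons of Fosl1 share 1163 of 2033 bases with Ccdc85b, and those of Jund 877 of 1668 with Gm11175, both on the opposite strand. The use of strand in counting was not stated, so the levels of Fosl1 and Jund are uncertain.

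**Figure D1:**
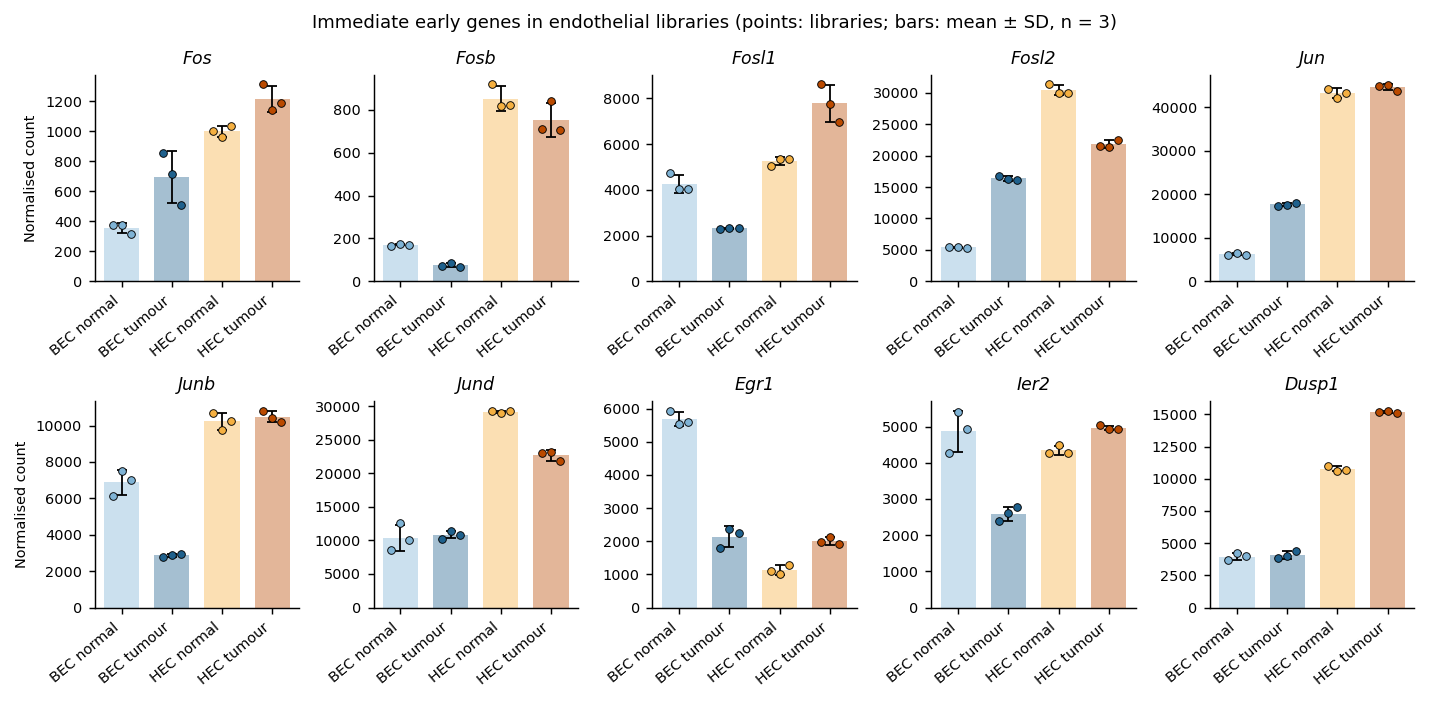
Normalised counts (vertical axes, linear, from 0, a scale of its own for each gene) of the 10 genes in the 4 endothelial groups. Points are libraries, bars means and error bars SD (n = 3). For 8 genes both HEC means stood above both BEC means, whereas Egr1 was highest in BEC normal. For Ier2 the mean of BEC normal lay between those of the HEC groups.

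Most of the 10 genes were higher in HECs than in BECs. An HEC group had the highest mean for 9 genes, and for 8 both HEC means were above both BEC means, an order that CPM left unchanged for all 10. The exceptions were Ier2, where BEC normal came between the HEC groups, and Egr1, whose order ran the other way. In HEC normal against BEC normal, 6 genes were called higher (17.1% of all genes tested were) and 1 was called lower (15.1%). In HEC tumour against BEC tumour, again 6 were called higher (background 11.2%) and 0 lower (10.7%). None of the 10 was lower at an unadjusted p under 0.05 in the tumour pair, and edgeR also called 0 lower. The median log2 fold change of the 10 genes was 1.47 in the normal pair and 1.20 in the tumour pair, beside 0.005 and 0.006 for all genes. The 8 myeloid markers summed to between 486 and 510 CPM in HEC normal against 114 to 136 CPM in BEC normal, and to between 357 and 375 CPM in HEC tumour against 1517 to 2042 CPM in BEC tumour. Most of the HEC sum was Cd68, at 33269 ± 858 normalised counts in HEC normal and 7515 ± 448 in BEC normal, while Csf1r and Cd14 were called lower in HEC normal and Adgre1 was at 0 in HEC tumour. The part of these cells in the HEC and BEC levels was not tested.

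Jun, the canonical partner of FOS in AP-1, showed the widest gap among the 10 in the normal tissues. BEC normal libraries had 6036, 6503 and 6069 normalised counts of Jun, BEC tumour libraries 17283, 17598 and 18049, HEC normal libraries 44226, 41998 and 43205, and HEC tumour libraries 44887, 44943 and 43747. The lowest HEC library was more than 2 times the highest BEC library, while the 2 HEC groups overlapped. The log2 fold change was 2.80 ± 0.04 (SE, 6.96-fold) in HEC normal against BEC normal and 1.34 ± 0.04 (2.52-fold, adjusted p = 3.24e-205) in HEC tumour against BEC tumour. The adjusted p of the first was too small for the software to represent. Jun was 2.85-fold higher in BEC tumour than in BEC normal, while the HEC groups differed by 1.03-fold.

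Fosb, a FOS family gene that also gives rise to a shortened, stable protein, was low everywhere but separated the cell types most in the tumour pair. BEC normal libraries had 167, 173 and 171 counts, BEC tumour libraries 71.4, 83.8 and 67.1, HEC normal libraries 919, 817 and 821, and HEC tumour libraries 709, 842 and 704. No BEC library came near the HEC libraries, which overlapped between their 2 groups. Fosb was 5.01-fold higher in HEC normal than BEC normal (log2 2.33 ± 0.14, adjusted p = 7.19e-59) and 10.1-fold higher in HEC tumour than in BEC tumour (log2 3.34 ± 0.16, adjusted p = 3.39e-99).

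Fos, the founding member of its family, was 2.81-fold higher in HEC normal than BEC normal (999 ± 36.7 against 356 ± 33.8, adjusted p = 1.29e-15). With tumour the gap did not reach a fold of 2 (1212 ± 88.3 against 694 ± 174, log2 0.81 ± 0.18). The 3 libraries of BEC tumour were spread from 510 to 857, the widest spread of any gene of the list in an endothelial group, with a coefficient of variation of 25.1%. Fosl2, which encodes the FOS relative FRA2, was 5.62-fold higher in HEC normal than BEC normal (30447 ± 799 against 5420 ± 101) but 1.33-fold higher in HEC tumour than in BEC tumour (21823 ± 617 against 16407 ± 377). Fosl1, which encodes FRA1, went the other way, with 1.23-fold in the normal pair (5253 ± 169 against 4271 ± 395) and 3.37-fold in the tumour pair (7785 ± 814 against 2309 ± 35.9, adjusted p = 2.26e-76).

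Junb, whose product has weaker transactivation than JUN, was 1.49-fold higher in HEC normal than BEC normal, under the fold threshold, and 3.65-fold higher in HEC tumour than in BEC tumour (10482 ± 309 against 2874 ± 89.6, adjusted p = 1.85e-118). Jund, the JUN family gene that many resting cells express, was 2.81-fold higher in the normal pair and 2.09-fold in the tumour pair. Its BEC normal libraries, at 8618, 12523 and 10029, differed more among themselves than those of any other group (coefficient of variation 19.0% against 6.65% for genes of like level). Dusp1 was 2.72-fold higher in HEC normal than BEC normal and 3.74-fold higher in HEC tumour than in BEC tumour (15208 ± 75.4 against 4066 ± 296, adjusted p = 1.77e-159). Ier2 did not pass the test in the normal pair (4346 ± 131 against 4871 ± 569, log2 -0.16 ± 0.09, adjusted p = 0.111), and in the tumour pair its fold stayed under the threshold, at 1.92.

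Egr1 did not follow the AP-1 genes. BEC normal libraries had 5939, 5548 and 5601 counts, BEC tumour libraries 1787, 2383 and 2253, HEC normal libraries 1116, 999 and 1294, and HEC tumour libraries 1962, 2141 and 1917. BEC normal was alone at the top, HEC normal alone at the bottom, and the 2 tumour groups overlapped. Egr1 fell by 2.33 ± 0.13 on the log2 scale in HEC normal against BEC normal (adjusted p = 3.3e-72), and in HEC tumour against BEC tumour the log2 fold change was -0.09 ± 0.13 (adjusted p = 0.562). BEC normal also had the highest sum of fibroblast and pericyte markers, between 845 and 855 CPM, against 90.9 to 123 CPM in BEC tumour and 11.1 to 26.5 CPM in the HEC groups, with Lum at 0 in BEC normal. The part of these cells in the Egr1 level was not tested.

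**Figure D2:**
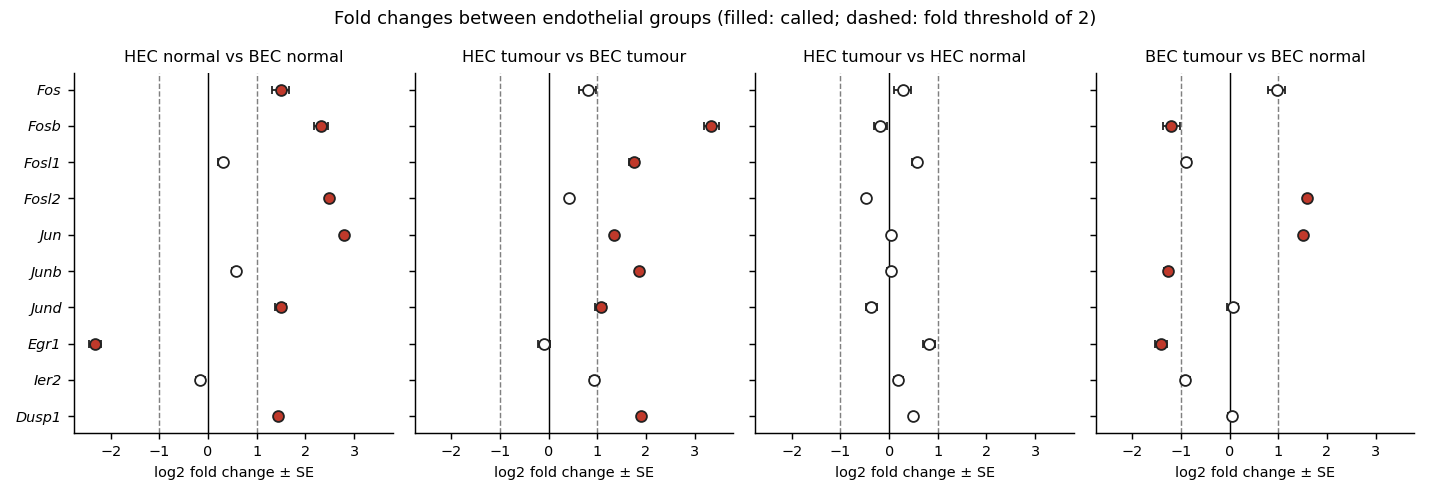
Log2 fold changes ± SE (horizontal axes) of the 10 genes in the 4 endothelial comparisons, with filled points for called genes and dashed lines at a fold of 2. HEC tumour against HEC normal has no filled point, whereas BEC tumour against BEC normal has 2 to the right and 3 to the left.

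Other immediate early genes were called in both directions in the normal pair and only higher in the tumour pair. Background shares over all genes were 17.1% higher and 15.1% lower in the normal pair, and 11.2% and 10.7% in the tumour pair. Of 39 tested, 11 were higher and 4 lower in the normal pair, with a median log2 fold change of 0.47, from Gadd45a, a stress-induced growth arrest gene (2.57 ± 0.08), to Ccn2, a matricellular target of YAP and of serum response factor (-3.81 ± 0.11). In HEC tumour against BEC tumour, 14 were higher and 0 lower, by edgeR as well, with 2 lower at an unadjusted p under 0.05. The largest of the 14 was Csrnp1 (log2 2.57 ± 0.33). Of the 13 tested bZIP partners of AP-1, 6 were higher and 3 lower in the normal pair. Atf3, a stress-induced partner of JUN, was highest (log2 2.51 ± 0.09), and Maf, a transcription factor also active in macrophages, was lowest (-6.71 ± 0.66). In the tumour pair 1 was higher, Atf3 again (1.59 ± 0.09), and 3 were lower, with Maf lowest (-8.45 ± 0.66).

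Few of the listed kinases and of the serum response factor and ETS regulators were called. Of all genes tested, 17.1% were called higher and 15.1% lower in the normal pair, and 11.2% and 10.7% in the tumour pair. Of the 19 kinases of the MAP kinase cascade, 1 was lower in the normal pair, Map2k6 (log2 -1.37 ± 0.15), and 0 were called in the tumour pair, where edgeR also called 0 and 10 had an unadjusted p under 0.05. Of 6 serum response factor and ETS regulators, 1 was lower in the normal pair, the coactivator Mrtfb (log2 -1.90 ± 0.22), and 0 were called in the tumour pair, where edgeR called 0 and all 6 had an unadjusted p under 0.05. Of 15 feedback inhibitors of MAP kinases, 3 were higher, Dusp8 foremost (1.26 ± 0.11), and 3 lower, with the receptor signalling inhibitor Spry2 lowest (-1.74 ± 0.11), in the normal pair, and 3 were higher in the tumour pair, with the ERK phosphatase Dusp5 highest (1.25 ± 0.07). Of 16 genes with known AP-1 sites, 1 was higher, the haem oxygenase gene Hmox1 (1.63 ± 0.08), and 5 lower, with the metallothionein Mt2 lowest (-3.82 ± 0.22), in the normal pair. In the tumour pair 5 were higher, with the cytokine Il6 highest (2.22 ± 0.30), and 3 lower, Mt2 again lowest (-2.87 ± 0.21). Of 12 heat shock genes, which dissociation also induces, 1 was higher, Hspb1 (2.84 ± 0.10), and 1 lower, Hspa1a (-2.06 ± 0.63), in the normal pair. In the tumour pair 2 were higher, with Hspa1b highest (1.52 ± 0.13). Hspa1a and Hspa1b are near-identical copies between which reads can be split, so their values are uncertain.

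Between HEC tumour and HEC normal, none of the 10 genes was called in either direction, against 4.58% of all genes higher and 3.21% lower. Here edgeR also called 0, and 4 were higher and 2 lower at an unadjusted p under 0.05. At an adjusted p under 0.05 without the fold threshold, 3 were higher, Egr1 (log2 0.82 ± 0.13, 2007 ± 119 against 1136 ± 148), Fosl1 (0.57 ± 0.09) and Dusp1 (0.50 ± 0.07), and 2 were lower, Fosl2 (-0.48 ± 0.04) and Jund (-0.36 ± 0.12). The largest of these was a fold of 1.77. By the adjusted p alone, 3128 of the 18511 genes tested were higher and 3426 lower. Jun (0.05 ± 0.04), Junb (0.03 ± 0.08), Fosb (-0.18 ± 0.13), Fos (0.28 ± 0.18) and Ier2 (0.19 ± 0.09) did not pass the test. Of the other immediate early genes, 2 were higher, with Ccn2 highest (1.65 ± 0.11), and 1 was lower, Nr4a3, a nuclear receptor gene (-1.46 ± 0.35). Among the genes with known AP-1 sites, the gelatinase gene Mmp9 was the lowest called (-1.66 ± 0.70), whereas edgeR called 0 of them lower. The ribosomal S6 kinase gene Rps6ka1 was the 1 called kinase (-1.02 ± 0.10).

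Between BEC tumour and BEC normal the genes of the list separated. Fosl2 and Jun were called higher and Fosb, Junb and Egr1 lower, that is 2 of 10 against a background of 12.4% and 3 of 10 against 10.8%. Fosl2 was at 5417, 5521 and 5320 in BEC normal and at 16818, 16328 and 16076 in BEC tumour, a 3.03-fold rise that left the groups far apart (log2 1.598 ± 0.042). Jun rose 2.85-fold (log2 1.51 ± 0.04, adjusted p = 2.07e-249). Junb was at 6137, 7512 and 7002 in BEC normal and at 2790, 2864 and 2969 in BEC tumour, and fell by 1.26 ± 0.08 on the log2 scale (adjusted p = 3.84e-54). Fosb fell by 1.20 ± 0.17 (adjusted p = 4.09e-12) and Egr1 by 1.41 ± 0.13 (adjusted p = 1.33e-27). Thus Jun and Junb, members of 1 family, went opposite ways.

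The fold stayed under 2 for Fos (log2 0.96 ± 0.18, adjusted p = 5.14e-07), Fosl1 (-0.89 ± 0.09) and Ier2 (-0.91 ± 0.09), all past the adjusted p. Fos passed the fold threshold without BEC normal replicate 1 (log2 1.0028) and without BEC tumour replicate 3 (1.14), and Ier2 passed it without BEC normal replicate 1 (-1.002). For Jund (10821 ± 538 against 10390 ± 1977, adjusted p = 0.697) and Dusp1 (4066 ± 296 against 3961 ± 282, adjusted p = 0.678) the groups overlapped. The myeloid sum was higher in every BEC tumour library than in any BEC normal library (1517 to 2042 against 114 to 136 CPM), with none of the 8 markers at 0 in either group. The 6 epithelial markers summed to between 8.98 and 77.6 CPM, against 1.51 to 2.95 CPM in BEC normal, where Krt5 and Krt14 were at 0. The part of these cells in the rises of Fosl2 and Jun was not tested.

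Of the 39 other immediate early genes, 4 were higher in BEC tumour than in BEC normal, led by Atf3 (log2 1.65 ± 0.09), and 7 were lower, with Ccn2 lowest (-2.45 ± 0.11). Among the 13 bZIP partners 4 were higher and 0 lower, by edgeR as well, with 1 lower at an unadjusted p under 0.05. The 15 MAP kinase feedback genes had 3 lower, Spry4 lowest (-1.94 ± 0.09), and 0 higher, by edgeR as well. At an unadjusted p under 0.05, 6 of them were higher. The 16 AP-1 targets had 2 higher, Hmox1 highest (1.89 ± 0.08), and 6 lower, of which the stromelysin gene Mmp3 was lowest (-3.34 ± 0.21). Map2k6 (-1.93 ± 0.15) and Mrtfb (-1.17 ± 0.22) were the called genes of the 19 kinases and of the 6 serum response factor and ETS regulators. Of the 12 heat shock genes Hspb1 was higher (1.29 ± 0.10), and 2 were lower, with Hspa1a lowest (-1.83 ± 0.63).

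For 7 of the 10 genes, the difference between the HEC groups departed by more than a fold of 2 from that between the BEC groups. Both HEC groups came from inguinal lymph nodes, whereas the BEC groups came from tumours and fat pads. Tissue and tumour therefore cannot be told apart on the BEC side. The departure was tested as the interaction, the log2 change in HECs less that in BECs. It was called positive for Egr1 (2.23 ± 0.18), Fosl1 (1.46 ± 0.13), Junb (1.29 ± 0.11), Ier2 (1.10 ± 0.13) and Fosb (1.02 ± 0.21), 5 of 10 beside 11.2% of all genes. It was called negative for Fosl2 (-2.08 ± 0.06) and Jun (-1.46 ± 0.06), 2 of 10 beside 12.1%. Fosb was close to the fold threshold and fell under it with edgeR (0.96), with TMM size factors (0.96), with values divided by the step (0.9973) and without any one of 5 libraries (0.92 to 0.99 without BEC tumour replicates 1 or 3, HEC normal replicates 2 or 3, or HEC tumour replicate 2). For Jun the HEC groups differed by a log2 of 0.05 and the BEC groups by 1.51, and for Junb by 0.03 and -1.26, so that most of the interaction lay in BECs. Of the other immediate early genes 9 were positive, Ccn2 highest (4.10 ± 0.15), and 4 negative, Nr4a3 lowest (-2.36 ± 0.51).

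The make-up of the FOS and JUN family transcripts was described from counts per kilobase, as shares of the sum over the 7 genes. Since the levels of Fosl1 and Jund are uncertain, so are the sums and the shares. In BECs the sum was 14005 ± 1412 without and 16407 ± 358 with tumour, and in HECs 41746 ± 651 without and 38823 ± 1093 with tumour. Jun took 13.9% ± 0.84 of it in BEC normal, against 33.7% ± 0.66 for BEC tumour, 32.4% ± 0.34 for HEC normal and 36.0% ± 0.51 for HEC tumour. Junb took 21.4% ± 0.79 in BEC normal, against 7.62% ± 0.19, 10.7% ± 0.31 and 11.7% ± 0.16 in the other groups, in the same order. BEC normal was the group that stood apart on both. Jund was the largest share in BEC normal (44.2% ± 3.95), BEC tumour (39.5% ± 1.12) and HEC normal (41.9% ± 0.45), whereas Jun and Jund shared the top in HEC tumour (36.0% and 35.0% ± 0.46). The JUN family together made up between 79.5% and 84.9% in the 4 groups.

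**Figure D3:**
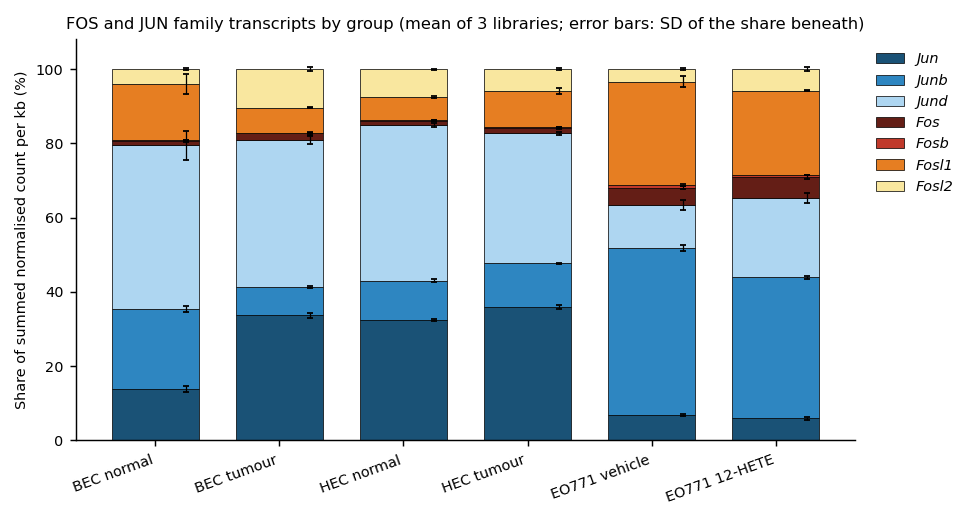
Shares (vertical axis, percent) of the 7 FOS and JUN family genes in their summed normalised count per kilobase, for the 6 groups. Stacked segments are means of 3 libraries, and each error bar is the SD of the share beneath it. Jun (dark blue) takes 13.9% in BEC normal and between 32.4% and 36.0% in the other 3 endothelial groups, while Junb is the largest segment in both EO771 groups.

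More of the gene pairs of the list went together across groups than within them. Across the 12 endothelial libraries, 26 of 45 pairs had a Pearson r over 0.5 and 9 an r under 0. For deviations from the group means these counts were 11 and 18. Over the 12 endothelial libraries, the median Pearson r of the 45 gene pairs was 0.69 for log2 levels (range -0.98 to 0.96) and 0.08 for deviations from the group means (-0.67 to 0.89). These points share libraries and groups, so no p is given. Pairs of other genes were not measured beside them, so the size of r is not read as a trait of the list. Fosb (r = 0.98), Dusp1 (0.98) and Jund (0.93) followed the mean of the 10, which includes each of them, most closely, and Egr1 ran against it (-0.55). Among genes with a mean of at least 100, the 5 most like that mean were Camkk1 (r = 0.999), Vmp1 (0.993), Git1 (0.992), Alox12 (0.991), the enzyme that makes 12-HETE, and Plcd3 (0.990). Most like Fos were Casp8ap2 (0.983), Snora57 (0.983) and Ccdc88a (0.979). Under Spearman correlation 1 of the 5 genes most like the mean was kept.

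In EO771 cells all 10 genes were lower with 12-HETE than with vehicle. Every one was called lower, beside 7.79% of all genes tested, and 0 were called higher (2.38%), by edgeR as well and at an unadjusted p under 0.05. In all 10 every 12-HETE library was under every vehicle library, which held for 30.5% of all genes. The median log2 fold change was -2.18, against 0.001 for all genes. Folds ran from 2.11 for Jund to 6.56 for Egr1, and between 1.87% and 7.60% of all genes tested had a lower log2 fold change than these genes.

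**Figure D4:**
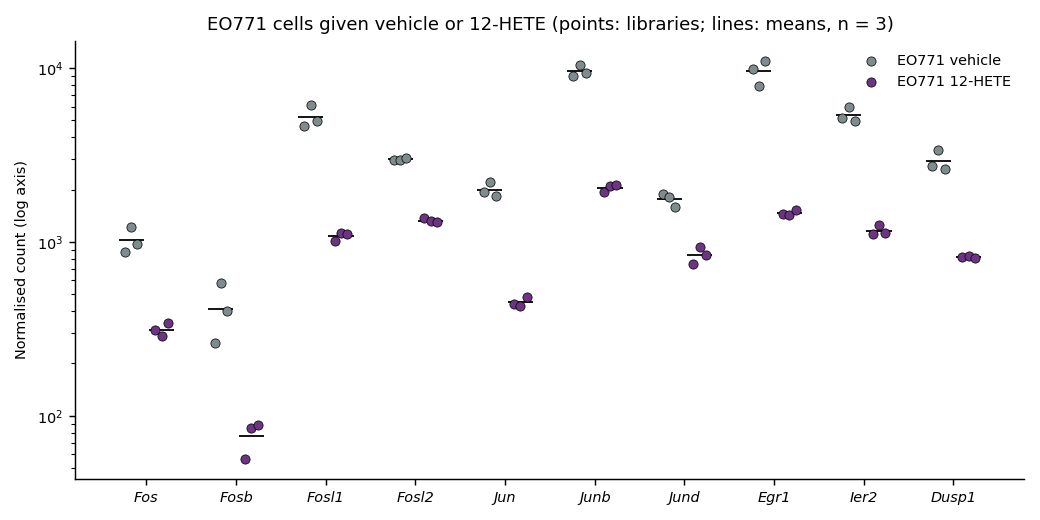
Normalised counts (vertical axis, log scale) of the 10 genes in EO771 cells given vehicle (grey) or 12-HETE (purple). Points are libraries and lines are means (n = 3). No pair of groups overlaps, and the mean of Egr1 was 9626 with vehicle and 1467 with 12-HETE.

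Egr1 fell most among the 10. It was at 9931, 7910 and 11036 with vehicle and at 1445, 1423 and 1532 with 12-HETE, and fell by 2.71 ± 0.14 on the log2 scale (adjusted p = 1.02e-85). Fosb was at 261, 577 and 401 with vehicle and at 56.5, 84.8 and 88.6 with 12-HETE. Its vehicle libraries had a coefficient of variation of 38.3%, but the lowest of them was still far above the highest 12-HETE library, and it fell by 2.43 ± 0.30 (adjusted p = 1.16e-14). Fosl1 fell by 2.28 ± 0.13 (5262 ± 787 to 1086 ± 61.8). Per kilobase it was the main FOS family transcript of these cells, a level left uncertain by the exon bases it shares with Ccdc85b. Fos was at 875, 1225 and 976 and then at 312, 286 and 340, a 3.28-fold fall (log2 -1.71 ± 0.16, adjusted p = 7.7e-25). Fosl2 fell less, 2.25-fold (2985 ± 45.8 to 1325 ± 37.2).

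Junb, the most abundant of the 10 per kilobase in vehicle-treated cells (4162 ± 339), was at 8951, 10451 and 9332 with vehicle and at 1932, 2101 and 2123 with 12-HETE. It fell by 2.22 ± 0.10 on the log2 scale (adjusted p = 4.92e-108). Jun fell by 2.15 ± 0.12 (1999 ± 199 to 451 ± 28.8), and Jund fell least, by 1.07 ± 0.13 (1898, 1820 and 1597 to 750, 933 and 840, adjusted p = 3.96e-16). Without 12-HETE replicate 1 the log2 fold change of Jund was -0.995, just under the threshold, and no other of the 10 lost its call when a library was left out. Ier2 fell by 2.21 ± 0.11 (5362 ± 515 to 1163 ± 79.2). Dusp1 fell by 1.84 ± 0.13 (2919 ± 417 to 817 ± 9.50), so that the phosphatase fell with the AP-1 genes.

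The fall was uneven and changed the make-up of the AP-1 transcripts. The sum over the 7 genes per kilobase went from 9250 ± 890 with vehicle to 2354 ± 125 with 12-HETE. The share of Junb was 45.0% ± 0.88 and then 37.9% ± 0.30, that of Fosl1 27.9% ± 1.49 and then 22.7% ± 0.10, and that of Jund 11.5% ± 1.40 and then 21.4% ± 1.42. For none of these 3 did the shares of the groups overlap. The FOS family made up 36.6% ± 1.78 and 34.7% ± 0.75, which overlapped. As in the endothelium, the exon bases that Fosl1 and Jund share with other genes leave these shares uncertain.

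The vehicle libraries differed more from each other than the 12-HETE libraries did. Over genes, the median squared difference between replicates was between 8.07 and 26.7 times the counting variance with vehicle and between 1.75 and 1.98 times with 12-HETE. Vehicle replicate 2 was the highest of the 3 in 7 of the 10 genes. Without it all 10 were still called lower. Mitochondrially encoded genes took 0.718% to 0.816% of the counts with vehicle and 2.24% to 2.45% with 12-HETE, and with these genes removed from the table all 10 were called lower as well, an alternative chosen after seeing the data. The 9 fibroblast and pericyte markers, some of which EO771 cells also express, summed to between 390 and 614 CPM with vehicle. With 12-HETE they summed to between 998 and 1037 CPM. Lum was at 0 in both groups, and Col1a2 was at 0 with 12-HETE only. The part of these markers in the results was not tested.

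Other immediate early genes fell too. Of 38 tested, 27 were called lower and 0 higher, by edgeR as well, beside 7.79% and 2.38% of all genes. At an unadjusted p under 0.05, 2 were higher. In 35 of the 38 the log2 fold change was below 0, beside 49.9% of all genes. Their median was -1.31. The lowest was Nr4a3 (-3.87 ± 0.91), at a low level (19.5 ± 2.62 to 1.36 ± 1.57), and the highest Zfp36l2, which encodes an mRNA decay factor (0.35). Of 11 bZIP partners 4 were lower, Atf3 lowest (-3.72 ± 0.12, 4248 ± 386 to 323 ± 33.1). Of 14 MAP kinase feedback genes 7 were lower, Dusp5 lowest (-1.87 ± 0.09). Of 14 genes with known AP-1 sites 7 were lower, Il6 lowest (-4.07 ± 0.60, 73.3 ± 21.9 to 4.41 ± 5.10). In these 3 lists 0 were higher, by edgeR as well, with 2 in each at an unadjusted p under 0.05.

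In the remaining lists no gene was called. Of 18 kinases of the MAP kinase cascade, 6 serum response factor and ETS regulators and 9 heat shock genes, DESeq2 and edgeR called 0 in either direction. Background shares over all genes were 2.38% higher and 7.79% lower. At an unadjusted p under 0.05 the kinases had 7 higher and 5 lower, the regulators 2 and 1, and the heat shock genes 7 and 0. Their median log2 fold changes were 0.14, 0.009 and 0.47. These are transcript levels and say nothing of kinase activity.

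**Figure D5:**
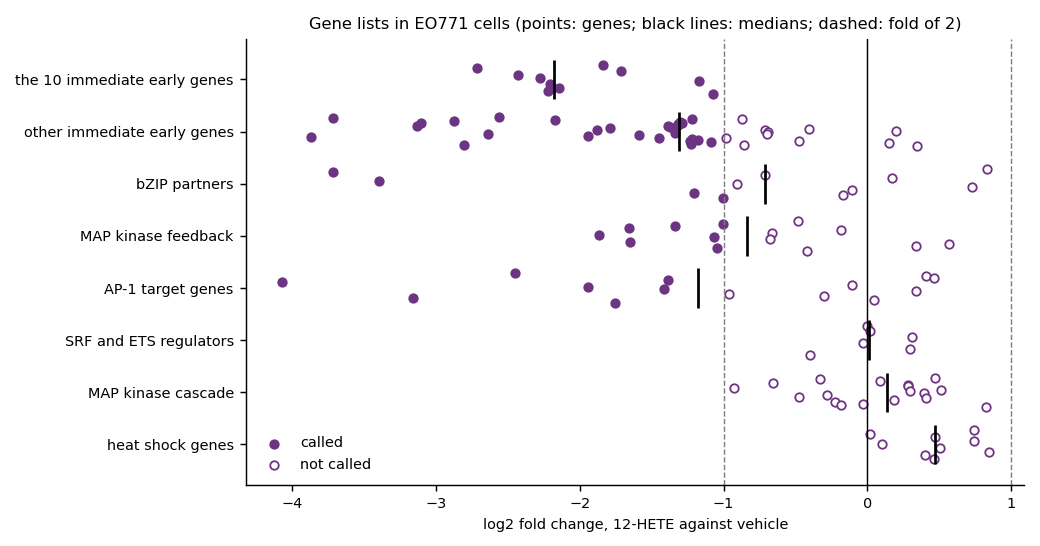
Log2 fold changes, 12-HETE against vehicle (horizontal axis), of the genes of 8 lists in EO771 cells. Points are genes, filled where called, black lines are list medians and dashed lines mark a fold of 2. The medians are -2.18 for the 10 immediate early genes, -1.31 for the other immediate early genes and 0.47 for the heat shock genes.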

How the data were processed

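Cells were sorted or cultured as described, and RNA was sequenced in 12 endothelial and 6 EO771 libraries. STAR alignment to GRCm38 and featureCounts gave the per-gene values of the endothelial libraries. What the authors deposited for them was treated as estimated counts, since they are whole numbers that pile up at low levels in steps of about 3.73. For EO771 cells the authors deposited raw counts per gene symbol. Labels and methods name different library kits, and the use of strand in counting is not given in the sources used here, so genes with overlapping exons are uncertain.

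The tests took genes whose mean over a table was 10 or more, 18511 endothelial and 11602 EO771 genes. DESeq2 1.42.0 (R 4.3.3) was run with default parameters, in 1 fit over the 4 endothelial groups and 1 over EO771, with group as the only term. Genes were called at an adjusted p under 0.05 and a fold over 2. Alternatives were edgeR 4.0.16 (quasi-likelihood, TMM), DESeq2 with TMM factors, no filter, other call rules, only the groups compared, the replicate number as a block, each library left out, values divided by the step and, added later, EO771 without mitochondrial genes. The scripts were tested on simulated data. No replicate pair differed by as little as counting noise. Same-numbered EO771 libraries deviated together from their group means (r from 0.111 to 0.328 over genes in the 3 pairs), which met the rule for pairs, but every EO771 value printed in the results comes from the fit without the block, and the block is an alternative. The endothelial numbers were not treated as pairs, and the block was an alternative there too. For BEC normal with HEC normal, r was 0.0301 to 0.0416 for same-numbered libraries and -0.0287 to -0.0065 for the others. For BEC tumour with HEC tumour, it was 0.0392 to 0.0692 and -0.0475 to 0.0023.

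Comparing 3 libraries with 3, an exact permutation test cannot give a two-sided p under 0.1, so tests rest on the spread shared across genes. Errors do not cover duplicate reads, since molecular identifiers were not described. Levels between genes use the length of merged exons. Gene lists were written from general knowledge, and the 10 genes and all lists were chosen with earlier results of these data known. Named genes were the 10, the called gene of largest change in each direction of each list, and the genes of highest Pearson r on log2(normalised count + 1), except that 2 of the genes so chosen are not reported here. Promoters were read from RefSeq, and those of Egr1, Fosl1 and Ier2 were not used here.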

Additional observations from a re-analysis of the deposited data

Results flagged for a closer look

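All 10 genes passed the DESeq2 interaction at an adjusted p under 0.05. It tests whether the difference between the HEC groups departs from that between the BEC groups. By the same rule, without a fold threshold, 4246 of the 18511 genes tested were positive and 4397 negative. The log2 interaction, the change in HECs less that in BECs, was 2.23 ± 0.18 (SE) for Egr1 (adjusted p = 1.78e-33), 1.46 ± 0.13 for Fosl1 (8.02e-27), 1.29 ± 0.11 for Junb (3.36e-29), 1.10 ± 0.13 for Ier2 (5.69e-16), 1.02 ± 0.21 for Fosb (7.43e-06) and 0.46 ± 0.10 for Dusp1 (1.68e-05). It was -2.08 ± 0.06 for Fosl2 (7.17e-269), -1.46 ± 0.06 for Jun (8.45e-121), -0.68 ± 0.25 for Fos (0.0176) and -0.42 ± 0.16 for Jund (0.0226).

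Egr1 moved in opposite directions, by 0.82 in HECs and by -1.41 in BECs, and so did Fosl1 (0.57 and -0.89) and Fosl2 (-0.48 and 1.598). Jun and Junb were within 0.05 in HECs. Fos, Jund and Dusp1 had an interaction below a fold of 2. The HEC groups both came from inguinal lymph nodes and shared 1 digestion, whereas the BEC groups differed in tissue and digestion. Tissue, digestion and tumour therefore cannot be told apart in the BEC side of the interaction.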

How the results depend on the processing

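Of 1120 values of single genes under the alternatives, 1080 kept their direction and their side of the thresholds, 16 lost a call, 20 gained one and 4 changed sign. The sign changes were of values near 0: with 1 library left out at a time, the log2 fold change of Junb ran from -0.0014 (without HEC normal replicate 2) to 0.0634 for HEC tumour against HEC normal, and for BEC tumour against BEC normal that of Jund ran from -0.0628 (without BEC normal replicate 1) to 0.205 and that of Dusp1 from -0.0198 (without BEC normal replicate 1) to 0.0838, with -0.0184 without BEC tumour replicate 3. With the adjusted p alone, which drops the fold threshold, HEC tumour against HEC normal had 3 genes higher and 2 lower in place of 0 and 0, BEC tumour against BEC normal had 5 lower in place of 3, and the interaction had 4 negative in place of 2. Of the 18511 genes tested, that rule gave 3128 higher and 3426 lower between the HEC groups. It gave 5034 lower between the BEC groups and 4397 negative in the interaction. When tested against a log2 fold change of 1, the interaction had 2 positive in place of 5, and 8 of the 10 genes were lower in EO771 cells. Under Spearman correlation 1 of the 5 genes most like the mean of the 10 was shared. TMM size factors brought the Fosb interaction to 0.96, and dividing by the step to 0.9973.

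With the replicate number as a block, all 10 genes were lower in EO771 cells, and the counts of genes called were as in the fit without the block for every comparison (6 higher and 1 lower for HEC normal against BEC normal, 6 and 0 for HEC tumour against BEC tumour, 0 and 0 between the HEC groups, 2 and 3 between the BEC groups, 5 and 2 for the interaction). No other call of the 10 genes was changed by the block. In the endothelial libraries same-numbered samples had r from -0.028 to 0.126 over all pairs of groups, and their numbers were not stated to pair samples. With groups of 3 libraries, calls close to a fold of 2 (Fosb in the interaction, Fos and Ier2 between BEC groups, Jund in EO771 cells) turned on single libraries. Of the 10 genes, depth limits Fosb most, the lowest in level in both tables.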
